A study of Mus musculus with 8 samples.

Results

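The extracellular matrix of the colon was described through 35 genes that fibroblasts and other cells of the gut wall use to build, anchor and remodel it. The genes were given as a list of names. Each was found in a deposited table of read counts by the Ensembl identifier that carries its symbol in a mouse annotation, so that 35 of 52636 rows are members. All 35 passed the filter on low counts and were tested, as were 16107 rows in all. They comprise 5 fibrillar collagens, 5 beaded-filament and fibril-associated collagens, 11 basement membrane genes, 10 glycoproteins, elastic fibre components and proteoglycans, and 4 matrix enzymes and inhibitors.

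Colon RNA was sequenced from germ-free wild-type C57BL/6 female mice, 6 weeks old, housed in gnotobiotic isolators. Control mice received no fungus (3 libraries). Another group was colonised by mouth with Candida albicans SC5314 (3 libraries), and a further one with Candida tropicalis MYA-3404 (2 libraries). Tissue was taken at day 30. The germ-free state is shared by all groups, so the only microbe named for a colonised group is its Candida strain. The labels do not say which layers of the colon wall entered a sample, nor whether 8 different mice were sampled. The p-values are therefore judged against differences among these libraries alone, some of which may be technical. Total counts per library ran from 16195376 to 19761098, and a count of 0 allows up to 0.152 to 0.185 CPM (the count divided by the normalised library size and scaled to 1e+06), which covers counting error only. Every member was far above that limit except Lox, with 415 counts in all and a lowest level of 1.13 CPM.

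Collagens are triple helices of 3 chains. Fibrillar collagens assemble into the tensile fibres of the submucosa and the other connective tissue layers, and fibroblasts are their main source. Type IV collagen and laminins form the separate sheets of the basement membrane, which lies under epithelium and around vessels and each smooth muscle cell, and which nidogen links together. Fibronectin, fibrillin, fibulins and small proteoglycans connect these networks, and lysyl oxidase crosslinks collagen and elastin. In a bulk sample, fewer cells of a type and less RNA per cell cannot be told apart, and many of these genes are made by more than 1 cell type.

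Of the 35 members, 33 lay above control with C. albicans and 32 lay below control with C. tropicalis, but no member passed the test in any comparison. All 35 lay lower with C. tropicalis than with C. albicans. A log2 fold change is the fitted difference in the log2 of the normalised level, given with its standard error (SE), and the threshold was an adjusted p of 0.05 over all genes tested, by edgeR's quasi-likelihood test with Benjamini-Hochberg adjustment. The 2 comparisons with control share the same 3 control libraries, and the comparison between species uses the same colonised libraries again, so the 3 are not independent.

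With C. albicans against control, the median log2 fold change of the members was 0.34, beside -0.02 over all genes tested, of which 48.2% lay higher. Called genes were 0 of 35, against 0.0435% of all genes, and the members' adjusted p ran from 0.203 to 0.988. An unadjusted p under 0.05 was reached by 12 members, all higher, which compares with 9.13% of all genes that were higher at that level. In 9 members every C. albicans library lay above every control, against 9.82% of all genes. DESeq2 called 2 members, both higher, beside 2.82% of all genes called higher, and limma-voom called 0. Without C. albicans replicate 2 the median was 0.20. The number of members higher without overlap was 15 without control replicate 1, when 17.6% of all genes were. It was 15 without control replicate 3 (16.3%), 18 without C. albicans replicate 3 (11.7%) and 13 without C. albicans replicate 1 (19.4%). It was 10 without control replicate 2 (13.8%) and 9 without C. albicans replicate 2 (12.7%). Leaving out either of these also left 1 member lower without overlap.

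With C. tropicalis against control, the median was -0.29, beside -0.02 over all genes, of which 52.1% lay lower. Again 0 of 35 were called, against 0.0310% of all genes, with adjusted p from 0.135 to 0.978. In this comparison 7 members had an unadjusted p under 0.05, all lower (8.05% of all genes were lower at that level). Both C. tropicalis libraries lay below all controls in 15 members, against 16.5% of all genes. That count was 27 without C. tropicalis replicate 1, when 23.7% of all genes lay below all controls in the library that remained. Without C. tropicalis replicate 2 it was 17, beside 30.7% of all genes, and 3 members lay above all controls. DESeq2 called 2 members, both lower (1.53% of all genes), edgeR with no filter on low counts called 1 (0.104% of all genes lower), and limma-voom called 0. The 3 members above control were Col14a1, Fbln2 and Timp3.

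With C. tropicalis against C. albicans, the median was -0.74, beside 0.04 over all genes, of which 46.3% lay lower. No member and 0% of all genes passed, and the members' adjusted p ran from 0.0646 to 0.931. Here 24 members had an unadjusted p under 0.05, all lower (14.4% of all genes), and 25 had no overlap between the groups, all lower (22.4% of all genes). DESeq2 called 18 members, all lower, beside 8.74% of all genes called lower, and limma-voom called 0. The edgeR count was 13 with no filter on low counts (3.48% of all genes lower) and 6 in a fit of only these 2 groups (4.21%). It was 12 without C. albicans replicate 1 (6.56%), 10 without control replicate 1 (4.44%) and 9 without control replicate 3 (4.58%). The edgeR count was 0 without C. albicans replicate 2, C. albicans replicate 3 or control replicate 2, and 0% of all genes passed there too. The smallest adjusted p of the members in these fits was 0.144, 0.171 and 0.114, in that order. With the replicate number as a block the count was also 0 (0% of all genes, smallest adjusted p 0.133). Whether any member passed therefore depended on the setting and on which libraries were kept. Leaving out a C. tropicalis library leaves 1 in that group. The median of the members was then -0.77 without replicate 1 and -0.52 without replicate 2.

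**Figure D1:**
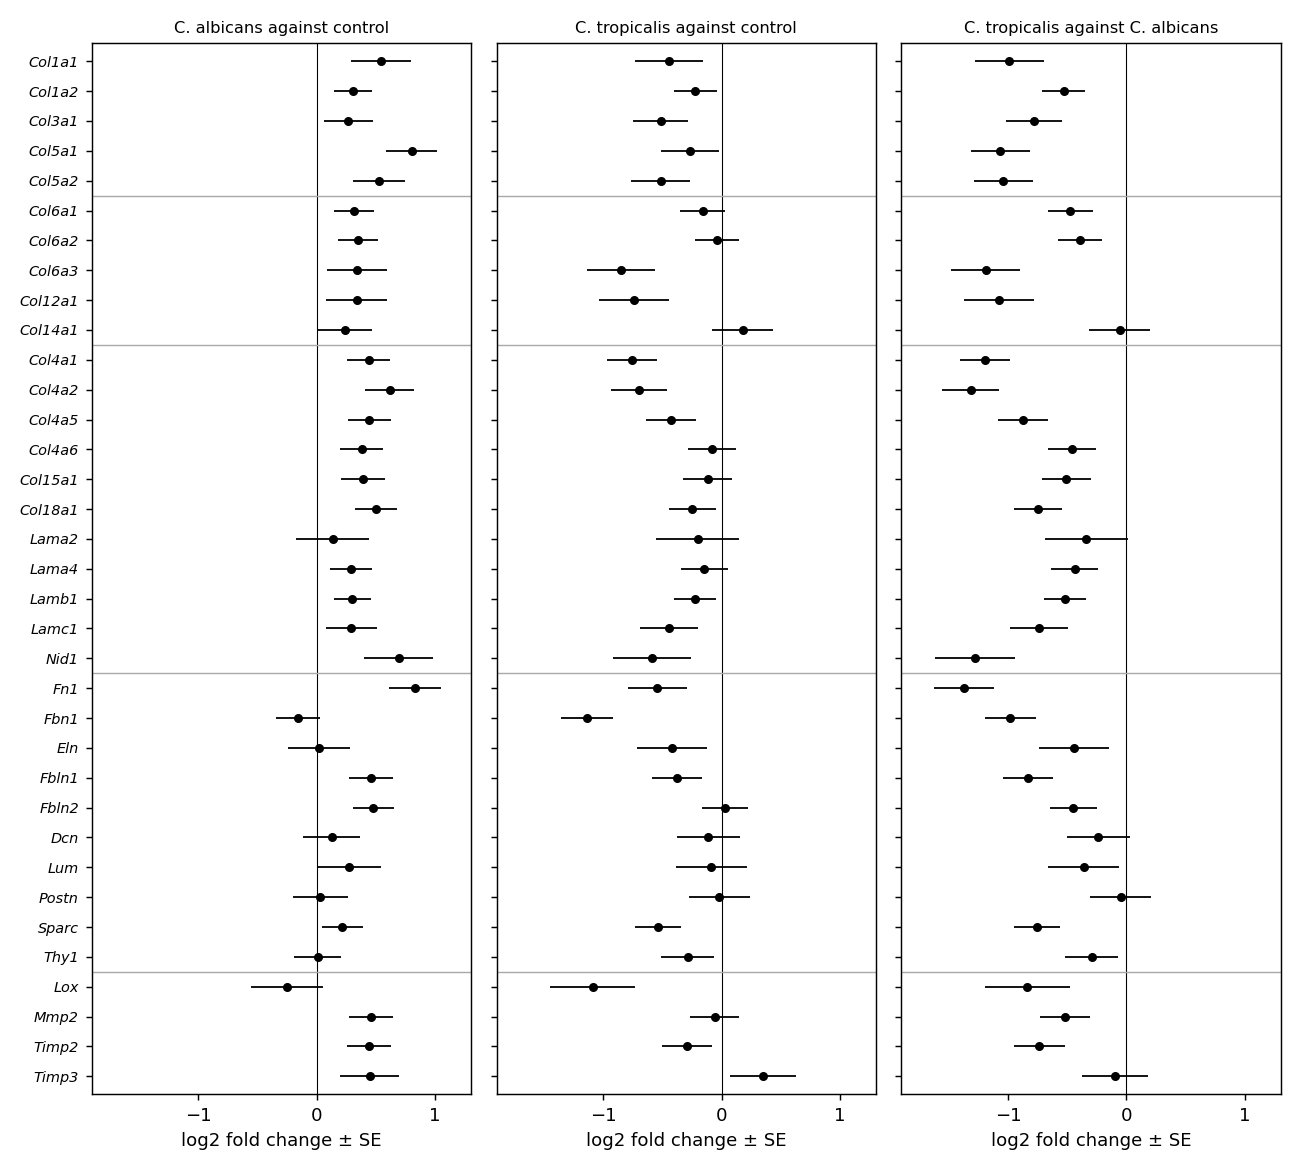
Log2 fold change of each of the 35 matrix genes with its SE, in the 3 comparisons, from one edgeR fit of 8 libraries; grey lines separate the 5 groups of genes. With C. tropicalis against C. albicans all 35 points lie below 0, from -1.37 for Fn1 to -0.05 for Postn, and none passed the threshold.

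The fibrillar collagens were Col1a1 and Col1a2, the chains of type I collagen, Col3a1, the chain of type III collagen, and Col5a1 and Col5a2, chains of type V collagen, which starts fibrils and limits their width. All 5 lay above control with C. albicans (median log2 fold change 0.52) and below it with C. tropicalis (median -0.44). Between the colonised groups the median was -0.99, and in 5 of 5 genes both C. tropicalis libraries lay below all C. albicans libraries (22.4% of all genes).

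Col1a1 (ENSMUSG00000001506, chromosome 11, from 94936224 to 94953042, mm10) stood at 261, 256 and 403 CPM in the controls, at 389, 594 and 359 CPM with C. albicans, and at 259.7 and 191 CPM with C. tropicalis. Control 3 lay among the C. albicans libraries and C. tropicalis replicate 1 among the controls, so only the colonised groups were apart. Their log2 fold change was -0.99 ± 0.29 (SE, adjusted p = 0.0944). Col1a2 varied less: its controls were 269, 280.5 and 298 CPM, its C. albicans libraries 323, 433 and 292 CPM, and its C. tropicalis libraries 248 and 236 CPM. Both C. tropicalis libraries were the lowest of the 8, by a small margin, with a log2 fold change of -0.22 ± 0.18 against control (adjusted p = 0.564) and -0.53 ± 0.18 against C. albicans (adjusted p = 0.129).

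Col3a1 had 485, 396 and 509.6 CPM in the controls, 509, 721 and 444 CPM with C. albicans, and 365 and 284 CPM with C. tropicalis. The controls and the C. albicans libraries overlapped, and both C. tropicalis libraries lay below the other 6 (log2 fold change -0.51 ± 0.23 against control, adjusted p = 0.332). The type V chain Col5a1 showed the other arrangement. Its controls were 113, 86.5 and 102 CPM and its C. tropicalis libraries 97.4 and 69.7 CPM, which overlapped, while C. albicans had 136, 229 and 159.8 CPM, above the other 5. Its log2 fold change was 0.80 ± 0.22 with C. albicans (adjusted p = 0.206, 1.74-fold), and -1.07 ± 0.25 between the colonised groups (adjusted p = 0.0676). DESeq2 called Col5a1 in the comparison of C. albicans with control. Col5a2 had 66.4, 52.6 and 56.0 CPM in the controls, 62.5, 115 and 74.3 CPM with C. albicans and 44.1 and 37.5 CPM with C. tropicalis, the latter again the 2 lowest.

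The promoters of Col3a1 and Col5a1 are shown because these fibrillar collagens differed in which group stood apart. Each sequence is the stretch before the annotated start from RefSeq (GRCm38.p6), 5′ to 3′ on the gene's strand. Capitals mark matches, on either strand, to TATAAA (the core of the TATA box), CCAAT (a site of NF-Y), GGGCGG (the GC box, a site of Sp1), TGACTCA (a site of AP-1), CATTCC (a site of TEAD factors) or CAGACA (a site of SMAD factors), and no capitalised matches overlap.
Col3a1 promoter (chr1:45311288-45311537, plus strand): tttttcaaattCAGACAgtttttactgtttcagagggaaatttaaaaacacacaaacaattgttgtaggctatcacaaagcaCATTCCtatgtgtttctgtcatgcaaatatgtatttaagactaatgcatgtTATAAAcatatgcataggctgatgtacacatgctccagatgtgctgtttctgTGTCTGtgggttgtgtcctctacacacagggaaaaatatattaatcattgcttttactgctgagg
Col5a1 promoter (chr2:27886175-27886424, plus strand): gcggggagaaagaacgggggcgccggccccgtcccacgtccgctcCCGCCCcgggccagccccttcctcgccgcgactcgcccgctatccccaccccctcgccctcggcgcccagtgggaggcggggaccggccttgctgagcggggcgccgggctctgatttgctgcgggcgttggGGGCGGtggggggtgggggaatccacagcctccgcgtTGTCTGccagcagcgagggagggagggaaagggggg
The window of Col3a1 is 35.2% G and C and holds TATAAA 117 bases before the start, CATTCC at 168 bases, and CAGACA at 239 bases and, on the other strand, at 65. The window of Col5a1 is 76.4% G and C, with GGGCGG at 73 bases and, on the other strand, at 205, and CAGACA on the other strand at 36 bases. Among the members, 22 of 35 had a promoter in the RefSeq table. GGGCGG, the GC box, was present in 14 of these 22 (63.6%), beside 35.4% of 27025 genes with windows of the same length. TATAAA was present in 2, Col3a1 and Postn (9.09%, beside 14.3% of all genes). CCAAT was found in 8 (36.4%, beside 37.5%), CAGACA in 6 (27.3%, beside 19.3%), CATTCC in 4 (18.2%, beside 14.4%) and TGACTCA in Col6a1 alone (4.55%, beside 5.16%). These are matches of letters, and no binding was measured.

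Beaded-filament and fibril-associated collagens sit between and on the surface of fibrils. The 5 were Col6a1, Col6a2 and Col6a3, the chains of type VI collagen, which forms beaded filaments around cells, and Col12a1 and Col14a1, of collagens that decorate fibrils. All 5 lay above control with C. albicans, with a median of 0.34, and none separated from the controls. With C. tropicalis 4 of 5 lay below control, with a median of -0.16.

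The type VI chains gave differences of unlike size. Col6a1 had controls of 229, 201 and 270.2 CPM, C. albicans libraries of 272, 345 and 252 CPM and C. tropicalis libraries of 224 and 193 CPM. Col6a2 was similar, at 217, 226 and 273 CPM in the controls, 283, 358 and 269 CPM with C. albicans and 257 and 206 CPM with C. tropicalis. In both genes C. tropicalis overlapped the controls, with log2 fold changes of -0.16 ± 0.19 and -0.041 ± 0.18. Col6a3, in contrast, had 98.9, 67.1 and 59.8 CPM in the controls, 81.8, 125 and 79.6 CPM with C. albicans and 49.8 and 33.9 CPM with C. tropicalis. Both C. tropicalis libraries were below the other 6, with log2 fold changes of -0.85 ± 0.29 against control (adjusted p = 0.261) and -1.19 ± 0.29 against C. albicans (adjusted p = 0.0697). Whether Col6a3 differed from Col6a1 in its response was not tested.

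Col12a1 followed Col6a3, with 65.6, 43.7 and 32.6 CPM in the controls, 50.4, 75.7 and 53.2 CPM with C. albicans and 31.2 and 25.5 CPM with C. tropicalis. Its controls spread widely, from just above the C. tropicalis libraries to the upper C. albicans values. Col14a1 ran from 18.6 to 29.9 CPM, and all 3 groups overlapped (C. tropicalis against control, 0.18 ± 0.26, adjusted p = 0.762).

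**Figure D2:**
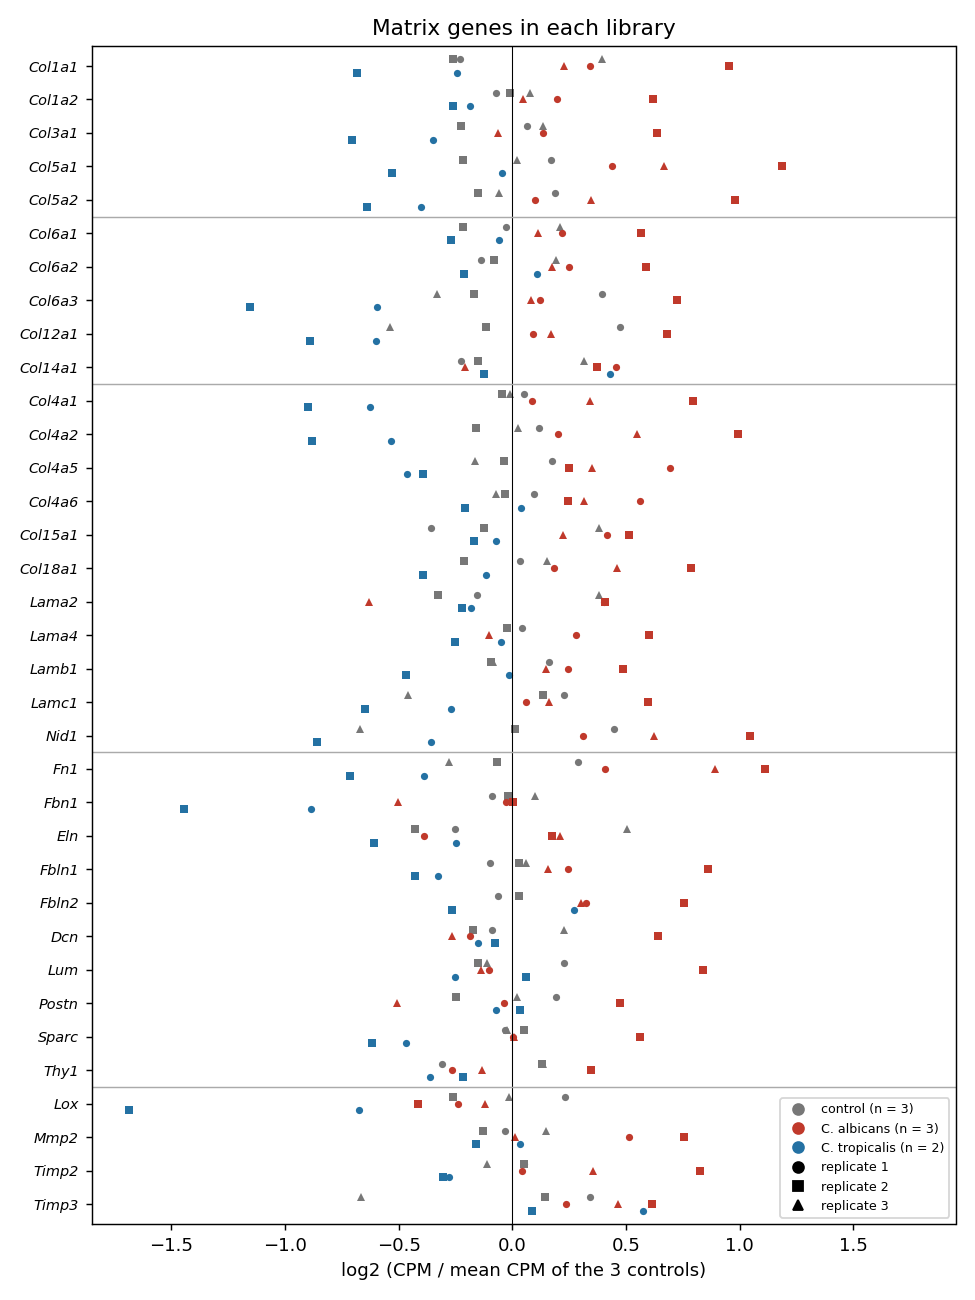
Level of each matrix gene in each of the 8 libraries as the log2 of its CPM over the mean CPM of the 3 controls (0, black line); colour gives the group and the marker the replicate number. C. albicans replicate 2 was the highest library in 29 of 35 genes and C. tropicalis replicate 2 the lowest in 26.

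All 11 basement membrane genes lay above control with C. albicans (median 0.39) and below it with C. tropicalis (median -0.25). Between the colonised groups the median was -0.74, with no overlap in 9 of 11 genes, all lower (22.4% of all genes). Of the 11 genes, 5 had every C. albicans library above the controls (9.82% of all genes). In 4 of the 11, both C. tropicalis libraries lay below the controls (16.5% of all genes). Among the type IV collagen genes, 3 did both (1.40% of all genes).

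Col4a1 and Col4a2, the chains of the common type IV collagen, are transcribed in opposite directions from starts that overlap by 22 bases on chromosome 8. Col4a1 (ENSMUSG00000031502, from 11198423 to 11312826, minus strand) had 275, 257 and 264 CPM in the controls, 282, 461 and 336 CPM with C. albicans and 172 and 142 CPM with C. tropicalis. The 3 groups did not overlap, and C. albicans replicate 1 was only just above the highest control. Log2 fold changes were 0.44 ± 0.18 with C. albicans (adjusted p = 0.309), -0.76 ± 0.21 with C. tropicalis (adjusted p = 0.213) and -1.19 ± 0.21 between them (adjusted p = 0.0646, 2.29-fold lower). DESeq2 called Col4a1 lower with C. tropicalis than in control.

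Its partner Col4a2 (ENSMUSG00000031503, from 11312805 to 11449287, plus strand) had 278, 229 and 260.1 CPM in the controls, 294, 509 and 374 CPM with C. albicans and 177 and 139 CPM with C. tropicalis. The order of the groups was the same, without overlap, at 0.62 ± 0.21 (adjusted p = 0.256), -0.70 ± 0.23 (adjusted p = 0.259) and -1.31 ± 0.24 (adjusted p = 0.0646). The library kit does not keep the strand, but the 22 shared bases are a very small part of either gene. The promoter windows of this pair lie within exons and are not shown.

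Col4a5 and Col4a6 encode chains of a second type IV collagen, found around smooth muscle, and are also a head-to-head pair, on the X chromosome with 1342 bases between their RefSeq starts (141474076 for Col4a6 and 141475419 for Col4a5, inside the GENCODE gene). Col4a5 (ENSMUSG00000031274, from 141475385 to 141689234) had 10.7, 9.23 and 8.44 CPM in the controls, 15.3, 11.2 and 12.1 CPM with C. albicans and 6.85 and 7.20 CPM with C. tropicalis. Its groups did not overlap (0.44 ± 0.18, adjusted p = 0.302, and -0.43 ± 0.21, adjusted p = 0.355, against control, and -0.87 ± 0.21, adjusted p = 0.0691, between them). Here C. albicans replicate 1 was the highest library, not replicate 2. Col4a6 had 7.48, 6.85 and 6.67 CPM in the controls and 10.3, 8.29 and 8.72 CPM with C. albicans, which did not overlap. With C. tropicalis it had 7.20 and 6.06 CPM, the first of which lay among the controls (-0.079 ± 0.20, adjusted p = 0.875).

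The sequences before the starts of this pair are shown with those of Fbln1, a fibulin gene outside the basement membrane group, because Col4a5 and Fbln1 ordered the 3 groups without overlap.
Col4a6 promoter (chrX:141474077-141474326, minus strand): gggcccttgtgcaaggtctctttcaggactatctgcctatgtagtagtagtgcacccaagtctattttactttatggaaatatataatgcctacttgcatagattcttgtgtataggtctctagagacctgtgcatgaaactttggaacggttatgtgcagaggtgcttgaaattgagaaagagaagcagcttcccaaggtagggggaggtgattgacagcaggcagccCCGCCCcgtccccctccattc
Col4a5 promoter (chrX:141475169-141475384, plus strand): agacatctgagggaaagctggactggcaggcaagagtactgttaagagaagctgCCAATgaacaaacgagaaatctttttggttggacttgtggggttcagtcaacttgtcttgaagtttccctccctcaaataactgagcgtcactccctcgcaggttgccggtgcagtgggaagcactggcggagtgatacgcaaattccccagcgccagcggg
Fbln1 promoter (chr15:85205699-85205948, plus strand): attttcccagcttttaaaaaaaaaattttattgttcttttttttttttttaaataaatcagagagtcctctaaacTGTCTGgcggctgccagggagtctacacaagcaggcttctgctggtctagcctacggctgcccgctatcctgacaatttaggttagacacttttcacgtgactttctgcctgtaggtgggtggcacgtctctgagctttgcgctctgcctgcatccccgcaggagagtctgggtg
The stretch of Col4a5 is limited to 216 bases that lie outside exons and ends 34 bases before its start. It holds CCAAT at 196 bases, and GGGCGG lies at 30 bases, outside the printed stretch. Col4a6 holds GGGCGG on the other strand at 21 bases, and the printed window of Fbln1 holds CAGACA on the other strand at 175 bases. Fbln1 has another RefSeq start, whose window is not shown. It holds the same CAGACA at 234 bases and GGGCGG on the other strand at 11, so Fbln1 counts among the members with a GC box.

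Col15a1 and Col18a1 encode collagens with proteoglycan character that tie basement membranes to the tissue around them. Col18a1 had 78.9, 66.5 and 85.8 CPM in the controls, 87.5, 133 and 106 CPM with C. albicans and 71.2 and 58.6 CPM with C. tropicalis. The C. albicans libraries were the 3 highest, while C. tropicalis overlapped the controls (0.50 ± 0.18, adjusted p = 0.264, with C. albicans, and -0.75 ± 0.20, adjusted p = 0.0818, between the colonised groups). Col15a1 ran from 25.4 to 46.4 CPM, with control 3 at 42.4 CPM among the C. albicans libraries and the colonised groups apart (-0.51 ± 0.21, adjusted p = 0.191).

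Of the laminin chains, Lamb1 and Lamc1 take part in most laminins, Lama2 is the chain of muscle basement membranes and Lama4 that of vessels. Lamc1 had 76.6, 71.8 and 47.5 CPM in the controls, 68.0, 98.7 and 73.0 CPM with C. albicans and 54.2 and 41.6 CPM with C. tropicalis. Control 3 lay between the 2 C. tropicalis libraries. Lamb1 ran from 37.2 to 72.2 CPM and separated only the colonised groups (-0.52 ± 0.18, adjusted p = 0.127). Lama4 ran from 17.8 to 32.3 CPM, and both C. tropicalis libraries lay just below all controls, without separating from C. albicans. Lama2 was low, from 4.39 to 9.03 CPM, and its groups overlapped in every comparison.

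Nid1, which encodes the linker nidogen, had 68.6, 50.7 and 31.6 CPM in the controls, 62.4, 104 and 77.6 CPM with C. albicans and 39.3 and 27.8 CPM with C. tropicalis. The controls reached into both colonised groups, which were apart from each other (-1.28 ± 0.34, adjusted p = 0.0777, 2.42-fold lower with C. tropicalis).

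Among the glycoproteins, elastic fibre components and proteoglycans, 9 of 10 lay above control with C. albicans, with a median of 0.17, and 9 of 10 below it with C. tropicalis, with a median of -0.33.

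Fn1 (ENSMUSG00000026193, chromosome 1, from 71585520 to 71653200) encodes fibronectin, on which cells and collagen fibrils assemble. It had 444, 347 and 299.7 CPM in the controls, 482, 784 and 674 CPM with C. albicans and 278 and 222 CPM with C. tropicalis. The 3 groups did not overlap. This was the largest log2 fold change of any member with C. albicans, at 0.83 ± 0.22 (adjusted p = 0.203, 1.78-fold), and between the colonised groups, at -1.37 ± 0.25 (adjusted p = 0.0646, 2.59-fold lower with C. tropicalis). Against control, C. tropicalis gave -0.54 ± 0.25 (adjusted p = 0.333). DESeq2 called Fn1 higher with C. albicans than in control.

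Fbln1 (ENSMUSG00000006369, chromosome 15, from 85205949 to 85286535), a fibulin that binds fibronectin and basement membranes, had 145, 159 and 162 CPM in the controls, 185, 282 and 174 CPM with C. albicans and 124 and 116 CPM with C. tropicalis. Its groups did not overlap either (0.46 ± 0.19, adjusted p = 0.300, -0.38 ± 0.21, adjusted p = 0.413, and -0.83 ± 0.21, adjusted p = 0.0745, in the same order of comparisons). Fbln2 ran in the controls from 36.4 to 38.9 CPM, with C. albicans at 47.6, 64.3 and 47.0 CPM and C. tropicalis at 46.0 and 31.7 CPM, on both sides of the controls.

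Fbn1 (ENSMUSG00000027204, chromosome 2, from 125300594 to 125507993), which encodes the microfibril protein fibrillin-1, was unlike these. Its controls were 29.4, 30.9 and 33.6 CPM and its C. albicans libraries 30.7, 31.4 and 22.1 CPM, which overlapped, while C. tropicalis had 17.0 and 11.5 CPM. The C. tropicalis libraries were the lowest 2 by a wide margin, at -1.14 ± 0.22 against control (adjusted p = 0.135, 2.20-fold lower), which was the largest difference of any member from control in that comparison. DESeq2, and edgeR with no filter on low counts, called it. Fbn1 shares 2442 exon bases with Gm9913 on the opposite strand, a gene with 2 counts in all.

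Sparc encodes a collagen-binding glycoprotein of fibroblasts and endothelium. It had 359, 380.1 and 360.4 CPM in the controls, 368, 542 and 369 CPM with C. albicans and 265 and 239 CPM with C. tropicalis. The controls lay close together, 2 of the C. albicans libraries lay with them, and C. tropicalis lay below (-0.54 ± 0.19, adjusted p = 0.267, against control). Per kilobase of exon, Sparc was the most abundant member in the controls, at 96.7 RPKM (CPM per kilobase) over all annotated exon bases and 159 RPKM over the longest transcript. Col6a1 and Col3a1 followed it, in this order by the first length and in the reverse by the other, and Lama2 was lowest by both. Eln, elastin, had 81.5, 72.2 and 138 CPM in the controls, and no comparison separated its groups.

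Dcn and Lum encode decorin and lumican, small proteoglycans that bind fibrillar collagen, Postn encodes periostin, and Thy1 a surface protein of fibroblasts and T cells. None of these 4 separated the groups in any comparison. Dcn had 99.4, 93.9 and 124 CPM in the controls, 93.0, 165 and 88.0 CPM with C. albicans and 95.4 and 100.4 CPM with C. tropicalis. Only C. albicans replicate 2 stood away from the rest. Postn had 125, 92.5 and 111 CPM in the controls, 107, 152 and 77.2 CPM with C. albicans and 104 and 112 CPM with C. tropicalis, with log2 fold changes of 0.031 ± 0.23, -0.019 ± 0.26 and -0.05 ± 0.26. Lum ran from 15.4 to 32.7 CPM and Thy1 from 14.2 to 23.1 CPM, each with C. albicans replicate 2 as the highest library. In the comparison of C. albicans with control, Dcn, Lum, Postn and Thy1 changed sign without that library.

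Lox, the crosslinking lysyl oxidase, had 4.28, 3.04 and 3.60 CPM in the controls, 3.09, 2.73 and 3.35 CPM with C. albicans and 2.28 and 1.13 CPM with C. tropicalis. The C. tropicalis libraries were the 2 lowest at these low counts (-1.09 ± 0.36, adjusted p = 0.258). Mmp2, a gelatinase that cleaves denatured and basement membrane collagen, had 49.2, 46.0 and 55.8 CPM in the controls, 71.9, 85.0 and 50.7 CPM with C. albicans and 51.6 and 45.1 CPM with C. tropicalis, and no groups were apart. Timp2, an inhibitor that also takes part in activating that enzyme, had 115, 115 and 103 CPM in the controls, 114, 197 and 142 CPM with C. albicans and 91.4 and 89.9 CPM with C. tropicalis. Its C. tropicalis libraries agreed closely and were the lowest of the 8 (-0.29 ± 0.21, adjusted p = 0.517). Timp3, a matrix-bound inhibitor, had 61.3, 53.5 and 30.5 CPM in the controls, 57.1, 74.3 and 66.9 CPM with C. albicans and 72.1 and 51.5 CPM with C. tropicalis. Timp3 shares 1733 exon bases with Syn3 on the other strand, and its 8241 counts stand beside 161 for that gene.

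Across the 3 groups, 5 members (Col4a1, Col4a2, Col4a5, Fn1 and Fbln1) placed every C. albicans library above every control and every control above both C. tropicalis libraries, a pattern that 1.40% of all genes showed. Both C. tropicalis libraries lay below the other 6 in 14 members, against 10.7% of all genes, and the 3 C. albicans libraries above the other 5 in 9 members, against 4.87%. Members are expressed by overlapping sets of cells in the same libraries and are not independent of each other, so these shares are descriptions.

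The ratio of 2 chains within a library does not depend on the library's normalisation. Col5a1:Col5a2, in reads per kilobase of exon, was 1.92, 1.86 and 2.06 in the controls, 2.46, 2.25 and 2.43 with C. albicans and 2.49 and 2.10 with C. tropicalis. All 5 colonised libraries lay above the 3 controls, C. tropicalis replicate 2 (2.10) only narrowly above control 3 (2.06), and the difference was not tested. Col4a5:Col4a6 was 1.69, 1.60 and 1.503 in the controls, 1.75, 1.61 and 1.64 with C. albicans and 1.13 and 1.41 with C. tropicalis, the latter below the other 6. Per library, Col4a5 had 120 to 272 counts and Col4a6 107 to 184. Counting error is thus part of the variation of this ratio, and the difference was not tested. Col4a1:Col4a2 stayed between 0.796 and 0.996, with the 3 C. albicans libraries lowest. Col6a3:Col6a1 ranged from 0.0642 to 0.158, and control 3, at 0.0810, lay with the C. tropicalis libraries. Col1a1:Col1a2 was 1.98 and 1.54 with C. tropicalis, below the C. albicans libraries (2.28, 2.60 and 2.33), and the controls, from 1.73 to 2.56, overlapped both. In Col6a1:Col6a2 the C. tropicalis libraries (1.658 and 1.785) lay below those of C. albicans (1.824, 1.832 and 1.787) by a narrow margin, and the controls, from 1.692 to 2.01, overlapped both. The size of a ratio depends on the length given to each gene, so only its variation among libraries is described. In the controls, for example, Col1a1:Col1a2 averaged 2.04 ± 0.453 (SD, n = 3) over all exon bases and 0.973 over the longest transcripts.

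**Figure D3:**
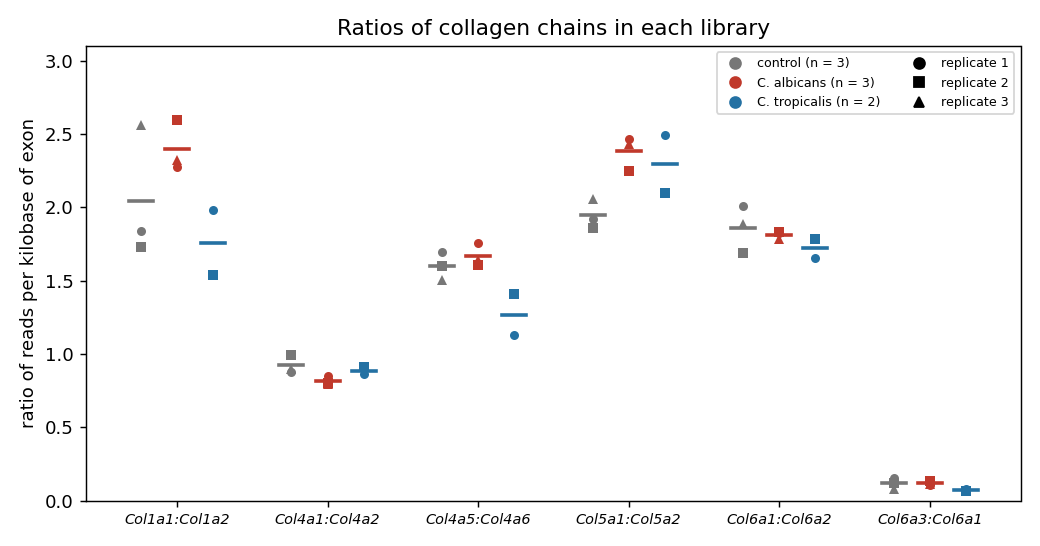
Ratio of reads per kilobase of exon of 2 collagen chains in each library, with bars at the group means (control n = 3, C. albicans n = 3, C. tropicalis n = 2). Col5a1:Col5a2 lay higher in all 5 colonised libraries than in the controls, for C. tropicalis replicate 2 by a narrow margin. Col4a5:Col4a6, from genes with few counts, was lowest in both C. tropicalis libraries.

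The share of all counts taken by the 35 genes was 0.466%, 0.377% and 0.458% in the controls, 0.473%, 0.680% and 0.478% with C. albicans and 0.341% and 0.293% with C. tropicalis. A score, the mean log2 CPM of the genes minus its mean over the 8 libraries, was 0.03, -0.12 and -0.02 in the controls, 0.16, 0.59 and 0.11 with C. albicans and -0.24 and -0.51 with C. tropicalis. The groups did not overlap in the score, and C. albicans replicate 2 and C. tropicalis replicate 2 were its extremes.

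Of 12 markers of fibroblast identity 11 were tested, and 5 lay above and 6 below control in both comparisons with control, with medians of -0.07 for C. albicans and -0.21 for C. tropicalis. None was called. With C. tropicalis, Pdgfra, Dpt, Twist1, Fap, Tcf21 and Gpx3 lay below every control in both libraries (6 of 11, beside 16.5% of all genes), and 4 of 11 were lower at an unadjusted p under 0.05 (8.05% of all genes). Clec3b went the other way, at 32.9 and 37.7 CPM, above all controls (22.0, 31.7 and 31.4 CPM). It was 1 of 11, beside 2581 of 16107 genes that lay higher without overlap. With C. tropicalis against C. albicans the median was -0.18, and 4 markers lay higher and 7 lower. Without overlap, Cd34, Gsn and Clec3b lay higher (3 of 11, beside 3777 of 16107 genes). Pdgfra, Dpt, Twist1 and Gpx3 lay lower (4 of 11, beside 3613 of 16107 genes). The fibroblast score was -0.09 and -0.21 with C. tropicalis, below the controls (-0.06, 0.08 and 0.13), and 0.00, 0.28 and -0.14 with C. albicans, which overlapped both. The summed level of the markers was 1132 to 1717 CPM in the controls, 1378 to 1787 CPM with C. albicans and 1551 to 1880 CPM with C. tropicalis. Most of that sum is Gsn, the actin-severing protein gelsolin, with 1370 and 1081 CPM in the C. tropicalis libraries, so the sum does not show the markers that lay lower there. Pdgfra, a receptor that marks fibroblasts, ran from 24.2 to 55.9 CPM and Dpt, dermatopontin, from 69.1 to 158 CPM, so fibroblast RNA was present in every library. Only Twist2, which was not tested, was at 0 in any library.

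Smooth muscle markers lay on the same side of control as most matrix genes, with larger differences. All 12 lay above control with C. albicans (median log2 fold change 0.79), below it with C. tropicalis (median -1.01) and lower with C. tropicalis than with C. albicans (median -1.82, adjusted p from 0.0646 to 0.186). Their summed level was 6801 to 13441 CPM in the controls, 9940 to 28704 CPM with C. albicans and 3884 to 4938 CPM with C. tropicalis, and none was at 0. The muscle score was 0.49, 0.08 and -0.64 in the controls, a spread of over 1 unit, while the matrix score of the same libraries stayed between -0.12 and 0.03. C. albicans replicate 2 was the highest library in both scores. Medians between the colonised groups were also negative for pericytes (-1.08), enteric neurons and glia (-1.56), endothelium (-0.51), fibroblasts (-0.18), mesothelium (-2.47) and adipocytes (-2.96). They were near 0 for epithelium (-0.05), and positive for macrophages (0.34) and B cells (0.95). Mesothelial markers were low, summing to 4.50 to 15.3 CPM with C. albicans and 2.51 to 3.57 CPM with C. tropicalis. Adipocyte markers, 4 of 5 tested, varied widely within groups. They summed to 8.80 to 185 CPM in the controls and 1.66 to 21.6 CPM with C. tropicalis. The part of these other cell types in the matrix values was not tested.

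**Figure D4:**
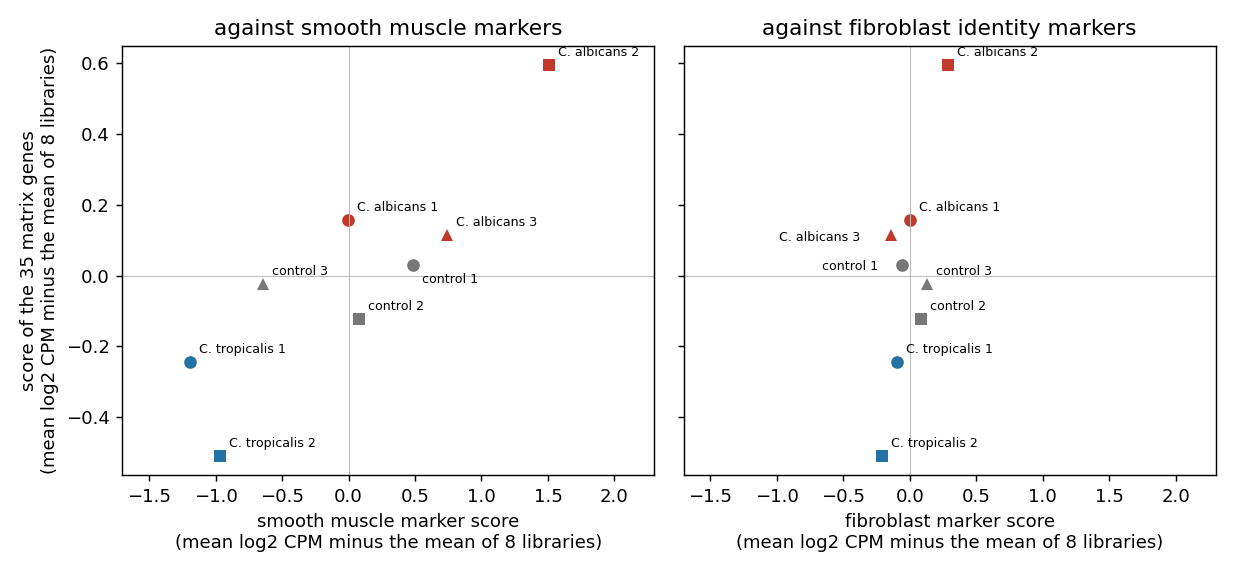
Score of the 35 matrix genes in each library against the score of smooth muscle markers (left) and of fibroblast identity markers (right), both as mean log2 CPM minus the mean of the 8 libraries. C. albicans replicate 2 lies highest on the muscle axis (1.504), both C. tropicalis libraries lie lowest (-1.20 and -0.97), and the fibroblast score runs from -0.21 to 0.28, with both C. tropicalis libraries below the controls.

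When each library's muscle score entered the fit as a covariate, no member was called, and few of all genes were. That share was 0.0993% with C. albicans, 0% with C. tropicalis and 0.0124% between them. The median of the members was 0.19 with C. albicans, -0.09 with C. tropicalis and -0.40 between them. The score itself differs between the groups, so the covariate and the group cannot be fully told apart. Between the colonised groups, Nid1 went from -1.28 to -0.10 ± 0.36, Col12a1 from -1.08 to -0.075 ± 0.33 and Timp2 from -0.74 to -0.0067 ± 0.26. Col1a1 went from -0.99 to -0.95 ± 0.50, Fbn1 from -0.98 to -1.12 ± 0.36 and Col4a5 from -0.87 to -1.02 ± 0.35. Members thus differed widely in how far the covariate moved them. Dcn, Lum, Postn, Lamc1 and Timp3 changed sign.

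**Figure D5:**
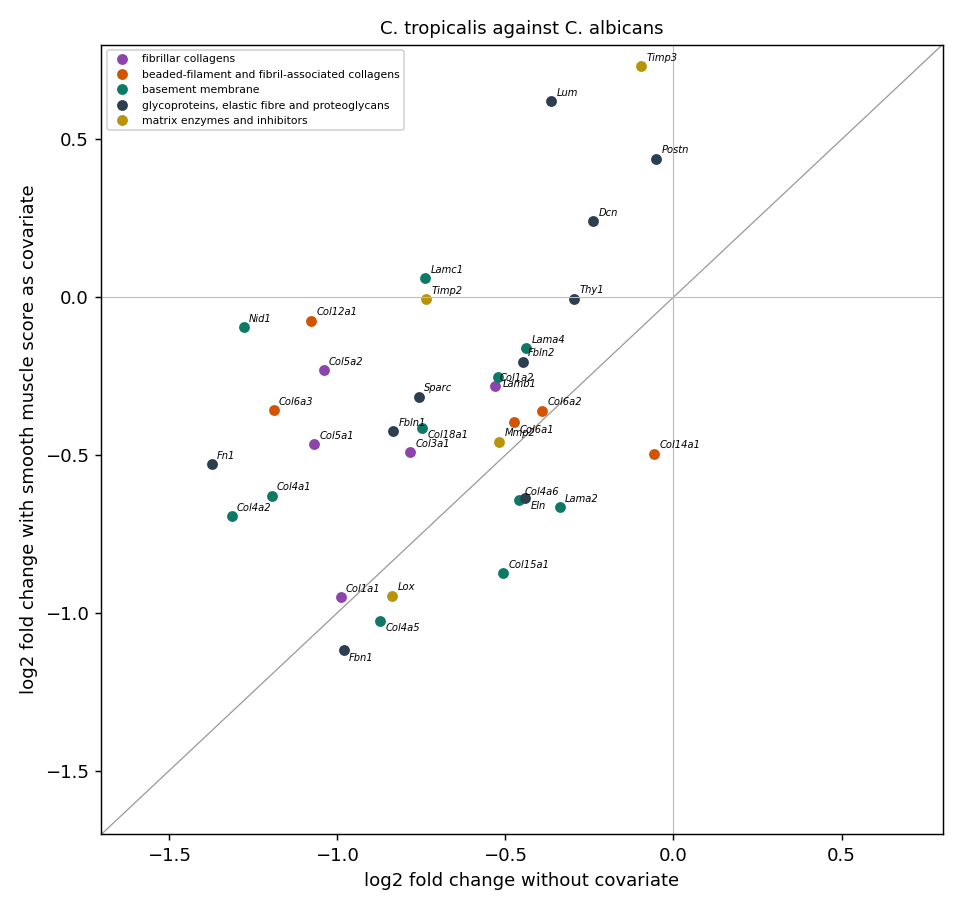
Log2 fold change of each matrix gene with C. tropicalis against C. albicans, without (x axis) and with (y axis) smooth muscle score in the fit; the diagonal marks equal values and colours the groups of genes. Col1a1, Fbn1, Lox and Col4a5 lie near the diagonal at -0.95 to -1.12, and Nid1, Col12a1, Timp2 and Lamc1 lie near 0 on the y axis.

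Genes that process, degrade, bind or regulate the matrix were read from 6 lists. In no list and no comparison did a gene pass the threshold, in either direction, so for each list the 2 genes with the smallest p are given as values. Of 25 genes for collagen processing and crosslinking, 22 lay above control with C. albicans (median 0.45) and 20 lay lower with C. tropicalis than with C. albicans (median -0.57). P4ha1, the catalytic subunit of collagen prolyl 4-hydroxylase, had 29.0, 38.5 and 26.9 CPM in the controls, 49.7, 60.8 and 63.3 CPM with C. albicans and 68.5 and 53.4 CPM with C. tropicalis. It thus lay above control in all 5 colonised libraries, at 0.88 ± 0.18 (adjusted p = 0.128) and 0.95 ± 0.19 (adjusted p = 0.137). Fkbp10, a collagen chaperone, had 22.0, 30.0 and 22.9 CPM with C. albicans and 12.3 and 12.4 CPM with C. tropicalis, below all controls (16.7, 19.3 and 17.5 CPM), at -1.02 ± 0.18 between the colonised groups (adjusted p = 0.0646). P3h3, of the prolyl 3-hydroxylase family, gave -0.93 ± 0.20 (adjusted p = 0.0658) in the same comparison and 0.60 ± 0.17 (adjusted p = 0.229) with C. albicans against control. Loxl2, a relative of Lox, gave -1.12 ± 0.36 with C. tropicalis against control (adjusted p = 0.250).

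Of 17 genes for matrix degradation and its inhibitors, 15 were tested. Adamts1, a protease of proteoglycans, gave 1.46 ± 0.31 with C. albicans (adjusted p = 0.142), from 9.08, 8.22 and 4.09 CPM in the controls and 15.9, 26.1 and 16.9 CPM with C. albicans. Plat, tissue plasminogen activator, had 22.7, 20.6 and 10.8 CPM in the controls and 3.997 and 5.33 CPM with C. tropicalis (-1.95 ± 0.39, adjusted p = 0.137), and -1.84 ± 0.39 between the colonised groups (adjusted p = 0.0658). Reck, a membrane-anchored inhibitor of metalloproteinases, gave 0.59 ± 0.24 with C. albicans (adjusted p = 0.305) and -1.12 ± 0.28 between the colonised groups (adjusted p = 0.0730). Mmp11 gave -0.98 ± 0.33 with C. tropicalis against control (adjusted p = 0.258).

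Among the matrix receptors, the 4 named by their p were integrin chains, and none passed the threshold. Itga5, the fibronectin receptor chain, had 144, 141 and 76.5 CPM in the controls, 177, 217 and 166 CPM with C. albicans and 65.7 and 61.3 CPM with C. tropicalis, ordering the groups as Fn1 did (-1.56 ± 0.27, adjusted p = 0.0646). Itga7, a laminin receptor chain of muscle, gave -1.25 ± 0.25 (adjusted p = 0.0646). Itga3 and Itga6, laminin receptor chains of epithelium, lay above control with both species instead, at 0.48 ± 0.14 (adjusted p = 0.218) and 0.43 ± 0.14 (adjusted p = 0.247) with C. albicans, and at 0.64 ± 0.15 (adjusted p = 0.168) and 0.61 ± 0.15 (adjusted p = 0.186) with C. tropicalis. Of the 19 receptors tested, 17 lay above control with C. albicans and 12 below it with C. tropicalis.

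In the TGF-beta pathway, which drives collagen transcription in fibroblasts, 15 of 19 genes lay above control with C. albicans (median 0.37) and 11 below it with C. tropicalis (median -0.10). Ltbp3, which tethers latent TGF-beta to the matrix, had 73.2, 59.6 and 75.2 CPM in the controls, 97.4, 170.4 and 143 CPM with C. albicans and 52.2 and 45.8 CPM with C. tropicalis, without overlap (0.98 ± 0.20, adjusted p = 0.133, and -1.48 ± 0.24, adjusted p = 0.0646, between the colonised groups). Its relative Ltbp2 gave -1.39 ± 0.31 between them (adjusted p = 0.0669), and the ligand Tgfb2 -1.06 ± 0.33 with C. tropicalis against control (adjusted p = 0.242). The repressors of SMAD signalling Ski and Skil gave 0.91 ± 0.21 with C. albicans (adjusted p = 0.158) and 0.48 ± 0.13 with C. tropicalis (adjusted p = 0.214).

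Among 13 other basement membrane genes, Hspg2, the heparan sulphate proteoglycan perlecan, had 309.8, 228 and 254 CPM in the controls, 376, 685 and 518 CPM with C. albicans and 201 and 175 CPM with C. tropicalis, again without overlap (-1.49 ± 0.26, adjusted p = 0.0646, between the colonised groups). Lama5, the laminin chain of epithelial and vascular basement membranes, gave -1.60 ± 0.28 (adjusted p = 0.0646) in that comparison, and Lamb2 0.66 ± 0.17 with C. albicans (adjusted p = 0.203). With C. tropicalis against control, Nid2, a nidogen of basement membranes, gave -0.79 ± 0.23 (adjusted p = 0.224). Among 19 other collagens and small matrix proteins, 16 lay above control with C. albicans and 17 below it with C. tropicalis. Emilin1, an elastic fibre glycoprotein, had 144, 119 and 92.4 CPM in the controls, 122, 266 and 201 CPM with C. albicans and 57.2 and 54.9 CPM with C. tropicalis (-1.81 ± 0.32, adjusted p = 0.0646, between the colonised groups). Col16a1 gave -1.06 ± 0.20 (adjusted p = 0.0646), Tnxb, tenascin-X, 1.09 ± 0.24 with C. albicans against control (adjusted p = 0.151), and Mfap4 -0.85 ± 0.28 with C. tropicalis against control (adjusted p = 0.258).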

How the data were processed

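Bulk colon RNA-seq of 8 libraries in 3 groups was used. The deposited table holds raw counts, as whole reads per Ensembl gene, made by the authors with no normalization per the file's values. Tools named in the submitters' processing notes are TopHat2 2.0.12, DESeq 1.18.0 and HTSeq, whose version they write as 6.1, with mm10 as the build. Annotation, strand setting and any filter remain unstated (not given in the sources used here). Libraries were made with NEBNext Ultra, per the labels' protocols, which does not keep strand. Symbols, positions and lengths came from GENCODE M21 on the same build, which holds 52489 of the 52636 identifiers; the other 147 held 0.00317% of counts.

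Counts were tested with edgeR 4.0.16 (R 4.3.3): TMM factors, filterByExpr on the 3 groups (16107 genes tested, 36529 not), one quasi-likelihood fit of 8 libraries with 3 contrasts, Benjamini-Hochberg over all tested genes, threshold 0.05. The fit had 5 residual degrees of freedom and a biological coefficient of variation of 0.243. The SE is the absolute log2 fold change over the square root of F. Levels are CPM on TMM sizes, and scores use log2 CPM with a prior count of 2. No libraries within a group agreed within sampling noise, so none were merged. The steps were tested on simulated data with known changes. Alternatives were DESeq2 1.42.0 (size factors and test), upper-quartile factors, limma-voom 3.58.1, no filter, CPM of at least 1 in 3 libraries, only the groups compared, a replicate block, the smooth muscle score as covariate, each library left out, and other gene lengths.

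The members, the 6 pathway lists and the 10 marker lists were chosen with earlier results of these data known. All members are described; of each pathway list and contrast up to 4 genes past the threshold are named, or otherwise the 2 with the smallest p. A gene that this rule names is not reported here. Protein sequences were not used here.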

Additional observations from a re-analysis of the deposited data

Results flagged for a closer look

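In 5 members, every C. albicans library lay above every control and both C. tropicalis libraries lay below every control, so that the colonised groups lay on opposite sides of the same 3 controls. None of the 5 passed the threshold against control. They were picked for this order, which fixes the sign of the difference between the colonised groups. As a description, the log2 fold change of C. tropicalis against C. albicans was -1.19 for Col4a1, -1.31 for Col4a2, -0.87 for Col4a5, -1.37 for Fn1 and -0.83 for Fbln1. None passed the threshold in edgeR's quasi-likelihood test, with adjusted p of 0.0646, 0.0646, 0.0691, 0.0646 and 0.0745. The pattern holds in 1.40% of all genes tested. When smooth muscle score entered the fit, the same differences were -0.63, -0.69, -1.02, -0.53 and -0.42.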

How the results depend on the processing

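Members past the threshold were 0 in each comparison and stayed 0 under most alternatives. With C. albicans against control the DESeq2 test gave 2 (Col5a1 and Fn1), beside 2.82% of all genes called higher. With C. tropicalis against control it gave 2 (Col4a1 and Fbn1), beside 1.53% called lower, and no filter on low counts gave 1 (Fbn1), beside 0.104%. With C. tropicalis against C. albicans the DESeq2 test gave 18, no filter 13 and a fit of only the groups compared 6. Leaving out 1 control or C. albicans library gave 0 to 12. In these settings more of all genes were called lower too, 8.74% with DESeq2, 3.48% with no filter and 4.21% with only the groups compared. With 1 such library left out that share ran from 0% to 6.56%. The median of the members with the smooth muscle covariate was 0.19, -0.087 and -0.40. Leaving out 1 library, it ran from 0.20 to 0.47, from -0.39 to -0.21 and from -0.79 to -0.52. Members without overlap ran from 10 to 18 with C. albicans and from 16 to 27 with C. tropicalis, and from 26 to 29 between the colonised groups, in either direction. Over all genes the same shares ran from 23.4% to 37.8%, from 43.4% to 57.8% and from 52.8% to 69.4%, beside 19.4%, 32.5% and 45.9% with all libraries. Where 1 C. tropicalis library remained, its spread was taken to be that of the other groups. The replicate numbers did not pair the libraries: deviations of same-numbered libraries correlated between -0.392 and 0.156, and a replicate block gave 0 members in each comparison, with medians of 0.37, -0.29 and -0.71. Mean chain ratios in the controls, over the longest transcript and then the coding length, were 0.973 and 1.02 for Col1a1:Col1a2, 1.02 and 1.07 for Col4a1:Col4a2, 1.37 and 1.35 for Col4a5:Col4a6, 1.36 and 1.40 for Col5a1:Col5a2, and 1.17 and 0.988 for Col6a1:Col6a2; the cause is the length itself.

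Some members that passed no test changed sign. With the covariate, C. albicans against control gave -0.045 for Col12a1, -0.026 for Lamc1, -0.11 for Dcn, -0.17 for Lum, -0.19 for Postn and -0.13 for Thy1. C. tropicalis against control gave 0.065 for Col5a1, -0.061 for Col14a1, 0.0092 for Lama4, 0.034 for Lamc1, 0.15 for Nid1, 0.13 for Dcn, 0.45 for Lum, 0.25 for Postn and 0.11 for Timp2. C. tropicalis against C. albicans gave 0.060 for Lamc1, 0.24 for Dcn, 0.62 for Lum, 0.44 for Postn and 0.73 for Timp3. Upper-quartile factors gave -0.028 for Eln, -0.021 for Postn and -0.039 for Thy1 with C. albicans, and -0.045 for Fbln2 with C. tropicalis. Postn was -0.015 with limma-voom and -0.017 with the replicate block for C. albicans against control, and 0.0059 with limma-voom between the colonised groups; the block gave -0.0062 for Fbln2 with C. tropicalis. Leaving out 1 library, C. albicans against control ran from -0.22 to 0.32 for Dcn, -0.12 to 0.36 for Eln, -0.24 to 0.019 for Fbn1, -0.022 to 0.43 for Lama2, -0.12 to 0.48 for Lum, -0.25 to 0.27 for Postn and -0.20 to 0.17 for Thy1. C. tropicalis against control ran from -0.12 to 0.43 for Col14a1, -0.27 to 0.12 for Col15a1, -0.20 to 0.043 for Col4a6, -0.21 to 0.11 for Col6a2, -0.19 to 0.018 for Dcn, -0.26 to 0.28 for Fbln2, -0.34 to 0.037 for Lama2, -0.25 to 0.063 for Lum, -0.16 to 0.039 for Mmp2 and -0.13 to 0.087 for Postn. C. tropicalis against C. albicans ran from -0.36 to 0.19 for Col14a1, -0.43 to 0.11 for Dcn, -0.56 to 0.031 for Lum, -0.29 to 0.23 for Postn and -0.36 to 0.13 for Timp3. Apart from the length in the chain ratios and the number of libraries or genes fitted, the cause was not tested. Depth limits Lox most.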
